A study of Mus musculus with 4 samples.

Results

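Poly(A)-binding and deadenylation factors are described here as 10 mouse genes whose mRNAs were read for IGF2BP3 binding in testes: Pabpc1, Pabpc4, Pabpc1l, Paip1, Paip2, Paip2b, Cnot1, Cnot6, Cnot7 and Pan3. The list was given by name, and a cluster belongs to a gene when its centre lies inside the gene span on the gene's own strand in mm10. All 10 genes were found, among 18068 genes with at least 1 cluster in either replicate, and all 10 had clusters in both replicates. The samples are whole testes of 8-week-old wild type mice, given as C57BL/6 in the strain label and C57BL/6J in the treatment label, crosslinked with UV light and labelled as germ cells and somatic cells together. No agent was given, and no knockout or IgG library is among the 4 samples. Enhanced crosslinking and immunoprecipitation sequencing (eCLIP-seq) was done in 2 replicates. Each has a library of RNA pulled down with an IGF2BP3 antibody (IP) and a size-matched input library (SMInput), which is RNA of the same lysate taken without the antibody. The usable reads, worked out from the deposited values, were 5133438 in the IP and 8706391 in the SMInput of replicate 1, and 4637612 and 16696122 in those of replicate 2. For each cluster of reads, the authors' table lists a log2 fold change, the ratio of IP to SMInput reads scaled to both libraries, and a −log10 P value. Clusters with both values at 2 or above are called significant, the threshold of the study's methods. Marker genes were read as a check of the tissue: all 6 genes for spermatids, 4 for spermatocytes, 4 for spermatogonia, 4 for Sertoli cells and 4 for Leydig cells had clusters in both replicates, and Alb, Ins2, Myh6 and Umod of other organs had none. Reads could not be recovered for clusters listed at a −log10 P of 0 or 400 and for a few others, so sums of reads here and below are partial. The recovered SMInput reads in the marker clusters were 5951 and 9647 for spermatids, 4180 and 7477 for spermatocytes, 219 and 249 for spermatogonia, 2547 and 5973 for Sertoli cells and 2620 and 3685 for Leydig cells in replicates 1 and 2. They come from 58 of 65 and 46 of 55, 175 of 217 and 154 of 193, 88 of 96 and 52 of 53, 86 of 117 and 95 of 109, and 31 of 32 and 33 of 34 clusters, in the same order. Most of the Sertoli cell reads lay in Clu, with 2123 and 5210, and most of the Leydig cell reads in Insl3, with 2536 and 3540.

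Poly(A)-binding proteins coat the tail of an mRNA, protect it and help its translation, and proteins that bind them raise or lower this activity. Deadenylases remove the tail: the PAN2-PAN3 complex is brought to mRNAs through the poly(A)-binding protein, and the large CCR4-NOT complex carries other deadenylases on the scaffold CNOT1. Spermatids store many mRNAs and translate them later, and mice without Cnot7 or Paip2 are known for defects in sperm formation. The comparison asks on which mRNAs of this machinery, and where along them, IP reads exceeded SMInput reads. The gene spans, exons, coding sequence (CDS) and untranslated regions (UTRs) are those of GENCODE M21, and positions count from 1.

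IGF2BP3 clusters were significant on 8 of the 10 mRNAs in both replicates, and they lay mainly in CDS and 3′UTRs. Among the tail-binding proteins the call fell on Pabpc1 and not on Pabpc4 or Pabpc1l. All 3 PABP-interacting genes, all 3 CCR4-NOT subunits and Pan3 had significant clusters in both replicates. Pan3 held the most, 15 in replicate 1 and 24 in replicate 2, and was followed over both replicates by Pabpc1 with 12 and 8 and Cnot1 with 6 and 11. This order depends on the threshold: with the log2 threshold lowered to 1, Pabpc1 had 52 and 63 and Pan3 21 and 33.

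In counts, 48 of the 533 clusters of the 10 genes were significant in replicate 1 (9.01%, 95% Wilson interval 6.86% to 11.7%), beside 4.92% of all 337234 clusters. In replicate 2, 60 of 422 were significant (14.2%, 11.2% to 17.9%), beside 13.2% of all 216354. The share in replicate 2 was thus near that of all clusters. Without Pabpc1 the shares were 7.68% (5.60% to 10.4%) in replicate 1 and 14.7% (11.4% to 18.8%) in replicate 2. Without Pabpc1 and Pan3 they were 6.91% (4.56% to 10.3%) and 11.7% (8.20% to 16.3%), and both intervals then include the share of all clusters. The median log2 fold change of the clusters of the 10 genes was 1.30 in replicate 1 and 1.26 in replicate 2, under the medians of all clusters, 1.50 and 1.53. The 8 genes with a significant cluster in both replicates stand beside 35.2% of the 14251 genes that had clusters in both. That share rises with the number of clusters in a gene, from 25.7% of genes with 10 to 29 clusters over both tables to 57.9% with 30 to 99 and 86.1% with 100 or more. Each of the 8 genes had at least 30 clusters, while Pabpc4 fell into the class of 10 to 29 and Pabpc1l into that of 2 to 9. Clusters and genes are not replicates, and no P value between samples was computed. All intervals cover counting error only. In whole testes, fewer cells of a type and less RNA per cell cannot be told apart.

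**Figure D1:**
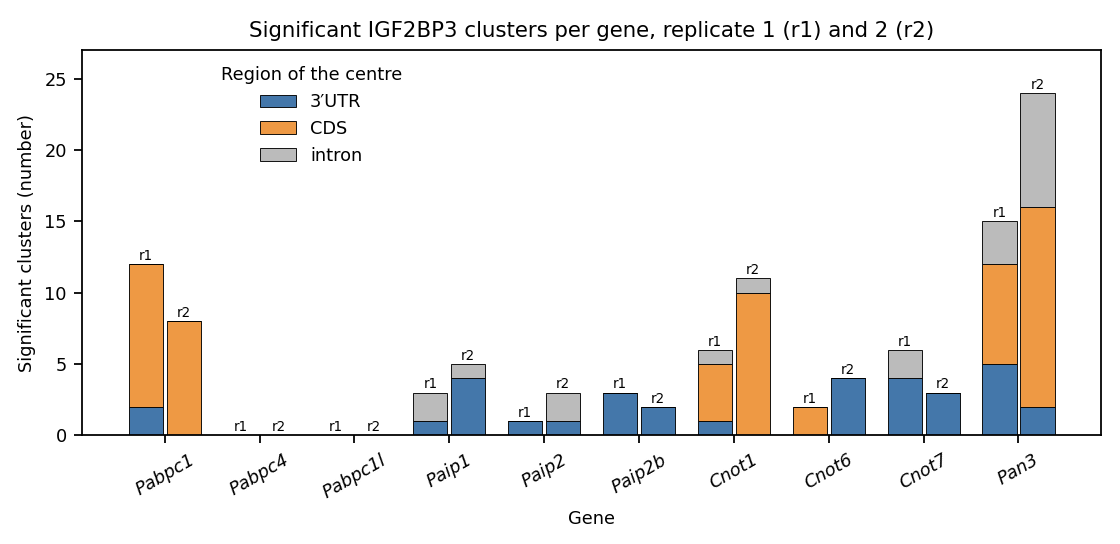
Number of significant IGF2BP3 clusters (vertical axis) in each of the 10 genes, for replicate 1 (r1) and replicate 2 (r2), with the region of the cluster centre by colour. Pan3 has 15 and 24, and Pabpc4 and Pabpc1l have 0 in both replicates.

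A stricter view of sharing asks whether significant clusters of both replicates cover the same bases. Significant clusters of the replicates that shared 1 base or more on a strand, with directly adjacent ones joined, made 16 sites in the 10 genes, of 3896 in all genes. These sites lay in 5 of the 10 genes, beside 15.1% of the 14251 genes. This share also rises with the number of clusters, to 23.9% of genes with 30 to 99, where 2 of 5 of the genes described here had a site, and to 33.7% with 100 or more, where 3 of 3 did. Pabpc1 had 6, Pan3 5, Cnot1 2, Cnot7 2 and Paip1 1. The other 3 genes called in both replicates, Paip2, Paip2b and Cnot6, had their significant clusters at different places in each replicate. Of the 16 sites, 13 lay in CDS (81.2%, 95% Wilson interval 57.0% to 93.4%) and 3 in 3′UTRs (18.8%, 6.59% to 43.0%). Over all genes, 26.6% of the joined sites lay in CDS and 63.4% in 3′UTRs. Shared sites thus lay more often in CDS here than over all genes, a difference that was not tested, and 11 of the 13 CDS sites come from Pabpc1 and Pan3. The 10 genes also had more clusters in CDS, 203 and 199 in replicates 1 and 2, than in 3′UTRs, 55 and 47.

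Significant single clusters of the 10 genes together also lay most often in CDS, which held more clusters than 3′UTRs. In replicate 1, 23 of the 48 significant clusters lay in CDS (47.9%, 95% Wilson interval 34.5% to 61.7%), 17 in 3′UTRs (35.4%, 23.4% to 49.6%) and 8 in introns. In replicate 2 the numbers were 32 in CDS (53.3%, 40.9% to 65.4%), 16 in 3′UTRs (26.7%, 17.1% to 39.0%) and 12 in introns, and 5′UTRs held none in either replicate. These calls come from 203 and 199 CDS clusters and 55 and 47 3′UTR clusters in replicates 1 and 2. A larger part of the 3′UTR clusters than of the CDS clusters was thus significant, a difference that was not tested. Over all significant clusters, CDS held 28.3% in replicate 1 and 20.3% in replicate 2, and 3′UTRs 43.3% and 36.7%. Without Pabpc1, the CDS share was 36.1% in replicate 1 and 46.2% in replicate 2, and without Pabpc1 and Pan3 it was 28.6% and 35.7%. The 3′UTR share was then 41.7% and 30.8% without Pabpc1, and 47.6% and 50% without both. The pooled significant clusters of the 8 remaining genes thus lay more often in 3′UTRs than in CDS. This did not hold for each gene: Pabpc4 and Pabpc1l had no significant cluster. Cnot1 had 4 and 10 in CDS beside 1 and 0 in its 3′UTR, and Cnot6 had 2 and 0 in replicate 1. The significant CDS clusters had a median of 35 IP reads in replicate 1 and 23 in replicate 2, beside 18 and 16.5 in 3′UTRs. Without Pabpc1 the CDS medians were 19 in both replicates, beside 17 and 16.5 in 3′UTRs. Intron clusters had medians of 8 and 7 IP reads, and none of the 20 fell in a joined site.

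Pabpc1, the main cytoplasmic poly(A)-binding protein, occupies bases 36595661 to 36609668 of chromosome 15, minus strand. Its clusters with recovered reads, 62 of 64 in replicate 1 and 64 of 68 in replicate 2, covered 2106 bases in replicate 1 and 1853 in replicate 2. Of all 10 genes it had the most reads per length, with 2869 SMInput reads per kilobase of clusters in replicate 1 and 5151 in replicate 2. For the other 9 genes this level, also from clusters with recovered reads only, ran from 52.8 to 283 in replicate 1 and from 54.7 to 496 in replicate 2. A log2 fold change above 0 was found for 63 of 64 clusters in replicate 1 and 67 of 68 in replicate 2, beside 91.8% and 93.4% of all clusters, and the medians of 1.50 and 1.51 were near those of all clusters. Significant were 12 clusters in replicate 1, of which 10 lay in CDS and 2 in the 3′UTR, and 8 in replicate 2, all in CDS. Their log2 fold changes ran from 2.08 to 2.72 in replicate 1 and from 2.02 to 2.24 in replicate 2, just past the threshold, and none reached 3. The CDS clusters spread over 8 exons in replicate 1 and 6 in replicate 2, from exon 1 to exon 13 of 15.

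The 6 joined sites of Pabpc1 lay in exons 1, 2, 5, 6, 12 and 13. The deepest was in exon 1, from 36608405 to 36608476, with a log2 fold change of 2.12 in replicate 1 from 462 IP and 180 SMInput reads (95% exact Clopper-Pearson interval 1.87 to 2.38). In replicate 2 its cluster began at 36608419 and had a log2 fold change of 2.04 (1.82 to 2.26) from 354 and 310 reads. The pair whose lower log2 fold change was largest was in exon 6. It ran from 36600975 to 36601007 in replicate 1, with 2.40 (1.74 to 3.12) from 78 IP and 25 SMInput reads. The cluster of replicate 2 ran from 36600996 to 36601007, with 2.18 (1.66 to 2.70) from 73 and 58. The intervals of both pairs overlap between the replicates, and their lower ends fall below the threshold of 2. The cluster of Pabpc1 with the highest listed −log10 P, 400 in replicate 2, was not significant, with a log2 fold change of 1.62 in the 5′UTR. Both significant 3′UTR clusters of replicate 1 touched each other near the transcript end, from 36595692 to 36595808, with log2 fold changes of 2.17 and 2.72, and no significant cluster of replicate 2 overlapped them.

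Pabpc4, a close relative induced in activated T cells, and Pabpc1l, known for its role in oocytes, had few clusters, and most of those with recovered reads held few. Pabpc4 had 12 clusters in replicate 1 and 11 in replicate 2, of which 6 and 8 had recovered reads, and Pabpc1l 3 and 2. The cluster of Pabpc4 with the highest −log10 P had a log2 fold change of 2.76 in replicate 1, but from 4 IP reads and 1 SMInput read, with a 95% exact Clopper-Pearson interval from -0.57 to 8.38. In replicate 2 its top cluster had 2.85 (0.05 to 6.31) from 4 IP and 2 SMInput reads. For Pabpc1l the values were 2.08 (-0.53 to 5.48) from 5 and 2 reads in replicate 1, and 2.26 (-0.30 to 5.03) from 4 and 3 reads in replicate 2, both in the 3′UTR. These intervals reach from near 0 or below to above 5, so at this depth neither an enrichment like that of the other genes nor its absence could be shown. Of the Pabpc4 clusters, 3 in replicate 1 and 4 in replicate 2 lay over nested small nucleolar RNA genes, with log2 fold changes from -0.80 to 0.48. Reads were recovered for 1 of them, with 24 IP and 62 SMInput reads.

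The PABP-interacting genes were called in 3′UTRs and introns and not in CDS. Paip1, which binds PABP and stimulates translation, occupies bases 119428601 to 119458218 of chromosome 13, plus strand. It had 3 significant clusters in replicate 1, 1 of them in the 3′UTR and 2 in introns. Replicate 2 had 5, of which 4 were in the 3′UTR, between 119457404 and 119458169. The site shared by both replicates was near the transcript end. It ran from 119458102 to 119458158 in replicate 1, with a log2 fold change of 2.76 (1.30 to 4.53) from 20 IP and 5 SMInput reads. The cluster of replicate 2 ran from 119458131 to 119458169, with 2.09 (0.81 to 3.39) from 13 and 11. The centre of the joined site lies 83 bases before the end of the mRNA. No CDS cluster was significant in Paip1, of 12 in replicate 1 and 10 in replicate 2. Paip2 and Paip2b had few CDS clusters, 4 and 2 in Paip2 and 1 and 0 in Paip2b, and none was significant.

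Paip2 and Paip2b encode inhibitors that displace PABP from the tail and hold back translation. Paip2, on chromosome 18, had 36 clusters in replicate 1 and 29 in replicate 2, of which 12 in each replicate were listed with a −log10 P of 0. Its median log2 fold changes, 0.47 and 0.19, were the lowest of the 10 genes in both replicates. It had 1 significant cluster in replicate 1 and 3 in replicate 2, of which 2 lay in introns. The 3′UTR held 1 in each replicate. In replicate 1 it lay from 35616549 to 35616619, with a log2 fold change of 3.41 (1.87 to 5.39) from 25 IP and 4 SMInput reads. In replicate 2 it lay from 35616974 to 35617045, with 3.61 (2.12 to 5.41) from 17 and 5. These clusters do not meet: the cluster of replicate 2 that overlaps the first had 1.68 and was not significant, and no cluster of replicate 1 overlaps the second. Paip2b had 3 significant clusters in replicate 1 and 2 in replicate 2, all in its 3′UTR of 3438 bases on chromosome 6. Their log2 fold changes ran from 2.35 to 2.44 and from 2.59 to 2.70, with 10 to 18 IP reads each, and none overlapped between the replicates.

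Cnot1, the scaffold of the CCR4-NOT complex, occupies bases 95719451 to 95807464 of chromosome 8, minus strand, and has an mRNA of 8390 bases in 49 exons. It had 114 clusters in each replicate, of which 6 and 11 were significant. All 4 significant CDS clusters of replicate 1 lay in exons 37 to 48, a range set by these clusters, so this count is fixed. In the same range, in the 3′ portion of the CDS, lay 9 of the 10 of replicate 2, with the remaining one in exon 11. Of all CDS clusters of Cnot1, 26 of 83 in replicate 1 (31.3%) and 24 of 79 in replicate 2 (30.4%) lay in exons 37 to 48. Whether significant clusters gather in this portion was not tested. Part of this portion has exact copies in another gene: the windows around all 7 of the significant clusters in exons 43 to 48, the joined site of exon 48 among them, hold stretches found in Gm31392, and no other window searched in Cnot1 does. How far reads of that copy add to these clusters was not tested. Exon 37 held the joined site with the highest values. In replicate 1 it ran from 95734241 to 95734286, with a log2 fold change of 2.43 (1.04 to 4.04) from 19 IP and 6 SMInput reads. In replicate 2 the higher of its clusters ran from 95734271 to 95734296, with 2.43 (1.30 to 3.62) from 18 and 12. The other joined site lay in exon 48, from 95720751 to 95720783, with 2.20 in replicate 1 and 2.36 in replicate 2. At the level of the whole gene the enrichment was low, with median log2 fold changes of 0.91 and 1.03.

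Cnot6 and Cnot7 encode deadenylases of the complex, and their significant clusters met between the replicates in Cnot7 and not in Cnot6. Cnot6, on chromosome 11, had 2 significant clusters in replicate 1, both in CDS, and 4 in replicate 2, all in the 3′UTR. The strongest of replicate 1, in exon 8 from 49682090 to 49682197, had a log2 fold change of 3.64 (1.90 to 6.02) from 22 IP and 3 SMInput reads, but the overlapping cluster of replicate 2 had 0.04. Of the Cnot6 clusters in replicate 2, the one with the highest −log10 P had 2.00 from 20 and 18 reads, at 49673355 to 49673418. Cnot7, also on chromosome 8 with bases 40492540 to 40515847 of the minus strand, had 6 significant clusters in replicate 1, of which 4 were in the 3′UTR, and 3 in replicate 2, all in the 3′UTR. Its strongest shared site ran from 40493503 to 40493605 in replicate 1, with 2.59 (1.67 to 3.60) from 46 IP and 13 SMInput reads. In replicate 2 it ran from 40493468 to 40493565, with 3.52 (2.69 to 4.43) from 51 and 16, and a −log10 P of 25.7. The interval of replicate 2 lies above the threshold of 2 for its whole length. A second joined site of Cnot7, from 40493336 to 40493407, had 2.43 and 2.54. Both sites lie in the last exon, in the 3′UTR, and none of the CDS clusters, 7 in replicate 1 and 5 in replicate 2, was significant.

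Pan3, the subunit that brings the PAN2 deadenylase to PABP, occupies bases 147430161 to 147548502 of chromosome 5, plus strand. It had 165 clusters in replicate 1 and 114 in replicate 2, of which 15 (9.09%, 95% Wilson interval 5.59% to 14.5%) and 24 (21.1%, 14.6% to 29.4%) were significant. Of 18068 genes, 27 had more significant clusters over both tables than the 39 of Pan3. By joined sites, 73 genes had more than its 5, and 61 genes, Pan3 among them, had 5. Introns held 3 of its significant clusters in replicate 1 and 8 in replicate 2, with medians of 8 and 6.5 IP reads. The CDS held 7 of 29 clusters in replicate 1 and 14 of 29 in replicate 2 as significant, in exons 7 to 14 and 7 to 18. All 5 joined sites lay in exons 7, 8, 10, 11 and 14, with centres from base 1298 to base 2111 of the mRNA. Its CDS of 2661 bases follows a 5′UTR of 127 bases. Whether these sites follow the spread of all CDS clusters of Pan3 was not tested.

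The pair of Pan3 whose lower log2 fold change was largest was at the end of exon 7. It ran from 147519719 to 147519754 in replicate 1, with a log2 fold change of 3.82 (2.11 to 6.19) from 25 IP and 3 SMInput reads. The cluster of replicate 2 ran from 147519735 to 147519753, with 3.56 (2.30 to 5.03) from 23 and 7. Both intervals lie above 2. In exon 8, the cluster from 147521830 to 147521848 in replicate 1 had the highest log2 fold change of the 108 significant clusters, 5.01 (2.36 to 10.39), on a single SMInput read beside 19 IP reads. Its partner in replicate 2, from 147521829 to 147521880, had 3.39 (2.36 to 4.53) from 32 IP and 11 SMInput reads. The 3′UTR of 2753 bases held 5 significant clusters in replicate 1 and 2 in replicate 2. Close to the end of the mRNA, the cluster of replicate 1, from 147548365 to 147548388, lay in the gap between those of replicate 2, from 147548314 to 147548363 and from 147548407 to 147548448. No base was shared there, and the values were 2.25 in replicate 1 and 2.85 and 2.68 in replicate 2.

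**Figure D2:**
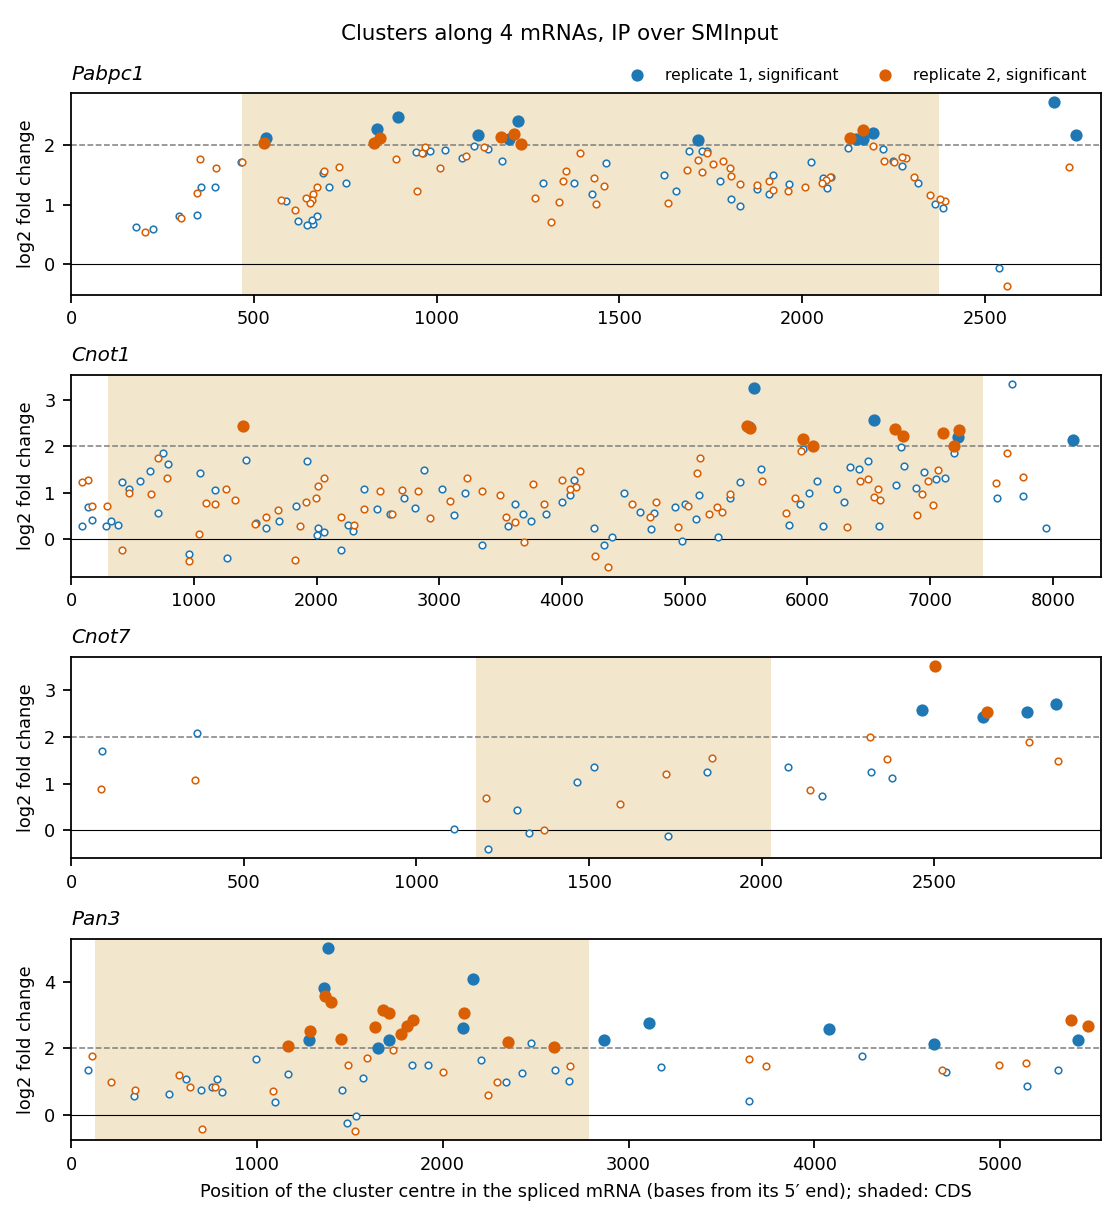
Log2 fold change of IP over SMInput (vertical axis) of each exon cluster of Pabpc1, Cnot1, Cnot7 and Pan3 against the position of its centre in the spliced mRNA in bases (horizontal axis), with the CDS shaded, the threshold of 2 dashed and filled points for significant clusters. Pabpc1 and Pan3 are called mainly in the CDS, Cnot1 in its 3′ portion, and Cnot7 in the 3′UTR.

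Across the 10 genes, 326 pairs of clusters overlapped between the replicates, and 287 had a log2 fold change above 0 in both. Of the 326 pairs, 22 were significant in both replicates, 19 in replicate 1 alone and 26 in replicate 2 alone. The log2 fold changes of the pairs had a Pearson correlation of 0.620 and a Spearman correlation of 0.633. These pooled values are a description across clusters that share libraries, genes and reads. Within single genes, where it was computed, the Pearson correlation ran from -0.087 in Cnot6, with 13 pairs, to 0.766 in Pabpc1. It was 0.308 in Paip1 and 0.511 in Cnot1. Pabpc1 alone gave 104 pairs, of which 103 were above 0 in both replicates, and Cnot1 gave 105, of which 93 were. Paip2 had 9 of 21 pairs above 0 in both, and over all genes 77.1% of the 93525 pairs were.

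**Figure D3:**
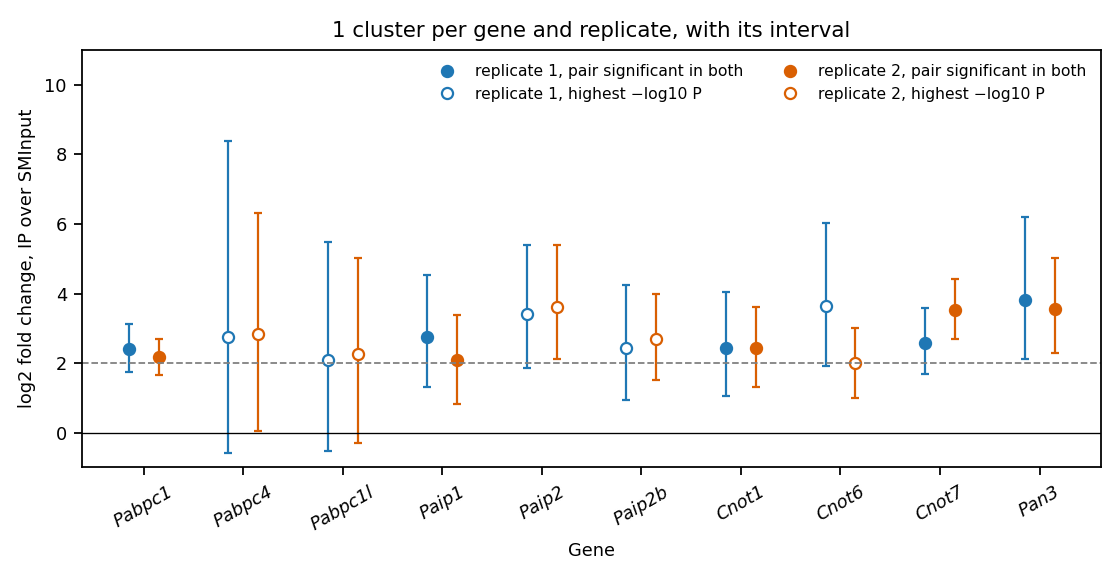
Log2 fold change of IP over SMInput (vertical axis) of 1 cluster per gene and replicate, with its 95% exact Clopper-Pearson interval. Filled points are the overlapping pair, significant in each replicate, whose lower value is largest, open points the cluster with the highest −log10 P where a gene has no such pair, and the dashed line is the threshold of 2.

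The rule that gives a cluster its gene decides which of these genes are counted as bound. When each cluster was given instead to the closest transcription start site of either strand, 53 significant clusters went to the 10 genes, of which 30 were among the 108 that lie inside them and 23 lay inside another gene. Pan3, with 39 significant clusters by span, was left with none, and Paip2b and Cnot6 had none either. Cnot1 kept none of its own 6 and 11, and the 2 and 3 given to it lie in 4930513N10Rik. Cnot7 rose to 14 in replicate 1 and 10 in replicate 2, of which 8 and 6 lie in its neighbour Vps37a. Pabpc1l was given 1 and 2 clusters that lie in Ywhab, although it has no significant cluster inside its own span. Pabpc1 kept 10 of 12 and 8 of 8.

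Copies of parts of these mRNAs elsewhere in the genome make some of the mapping uncertain. Stretches of 30 bases in windows of 100 bases around the significant CDS and 3′UTR clusters were looked for elsewhere on the assembled chromosomes. For Pabpc1, 15 of 20 windows held at least 1 stretch with an exact copy elsewhere, at up to 10 places, and 37.6% of all its stretches had one. For Cnot1, 7 of 15 windows did, as given above, and for Paip2b 4 of 5. The windows of Paip1, Paip2, Cnot6, Cnot7 and Pan3 held none. In Pabpc1, the windows of the joined sites in exons 1 and 6 held none in either replicate. Those of its 3′UTR clusters had copies of 68 and 71 of 71 stretches. Values of the clusters of Pabpc1, Cnot1 and Paip2b whose windows hold copies may thus include reads of them, which was not tested. The intron clusters, 11 in Pan3 and 2 in Cnot7 among them, were not searched. The paralogues are less alike: of 2788 stretches of the Pabpc1 mRNA, 11 occur in that of Pabpc2, 13 in that of Pabpc6 and 0 in those of Pabpc4 and Pabpc1l.

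The genomic sequence under the shared pairs is printed for the 5 genes that have one, to show the bases that their significant clusters have in common. Each is read 5′ to 3′ on the strand of the gene from GRCm38, within the coding exon or as 30 bases of 3′UTR, and capitals mark the bases inside significant clusters of both replicates.
Pabpc1, exon 6, chr15:36600952-36601007: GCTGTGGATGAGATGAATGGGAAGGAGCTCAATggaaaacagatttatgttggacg
Cnot1, exon 37, chr8:95734241-95734328: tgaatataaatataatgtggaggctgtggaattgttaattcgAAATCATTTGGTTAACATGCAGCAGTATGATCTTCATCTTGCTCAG
Pan3, exon 7, chr5:147519695-147519752: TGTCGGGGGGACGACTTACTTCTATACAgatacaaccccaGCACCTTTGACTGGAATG
Paip1, 3′UTR, chr13:119458130-119458159: tTCCCACTTCTGCTTGTTTGTTTGTTCAGt
Cnot7, 3′UTR, chr8:40493520-40493549: TTTTTCTTGCTCTTAGCTAGAAAAATAACC
The 30 bases of Cnot7 and 28 of those of Paip1 fall inside significant clusters of both replicates. Of the CDS windows, 33 of 56 bases in Pabpc1, 46 of 88 in Cnot1 and 46 of 58 in Pan3 do. The GC content of these windows was 44.6% in Pabpc1, 34.1% in Cnot1 and 50% in Pan3.

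Motifs were counted on the strand of the cluster in windows of 100 bases around each centre. Of the motifs named by the study, GAACA was in 2 of 48 windows in replicate 1 (4.17%) and in 5 of 60 in replicate 2 (8.33%), beside 8.87% and 8.38% of all significant windows. AAACC was in 1 of 48 (2.08%) and 0 of 60, for which the 95% Wilson interval reaches 6.02%, beside 8.65% and 8.14%. None of the 20 windows of Pabpc1 held either. The shorter GGAC was in 16 of 48 windows (33.3%) and 12 of 60, beside 26.3% and 24.0%, and was in the printed sequences of Pabpc1, outside the capitals, and Pan3, inside them. The DRACH motif of m6A, which most windows of this length hold, was in 89.6% and 88.3% of the windows of the 10 genes and in 83.4% and 82.1% of all. With these numbers of windows the intervals of GAACA, GGAC and DRACH include the share of all windows in both replicates, and that of AAACC does so in replicate 1 only. A match is a description of the letters and not a binding site. The windows were rich in A and T, with a median GC content of 39% in replicate 1 and 41% in replicate 2, beside 47% and 46% over all significant clusters.

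Other genes of the same machinery were read from lists by function, and their counts stand beside the shares over all genes given above, 35.2% with a significant cluster in both replicates and 15.1% with a joined site. Among 8 other CCR4-NOT subunits, 5 had a significant cluster in both replicates, and 3 held 13 joined sites. Of these, 11 were in Cnot4, a ubiquitin ligase subunit, which had 32 significant clusters in replicate 1 and 27 in replicate 2, more over both tables than any of the 10 genes. Cnot9 and Cnot2 had 1 joined site each. The paralogues of the deadenylases had few: Cnot6l had 2 significant clusters in each replicate, and Cnot8 1 and 0. Of 6 other deadenylases, Noct alone was significant in both replicates, with 1 joined site. Pan2, the catalytic partner of Pan3, had 23 clusters in replicate 1 and 14 in replicate 2 and none significant, and Parn had 0 and 1. Within the PAN2-PAN3 complex, the counts were thus high for the adaptor and 0 for the enzyme, which also had fewer clusters, and the difference was not tested.

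Among 6 other poly(A)-binding proteins, the intronless Pabpc2 and Pabpc6 had significant clusters in both replicates and 2 joined sites each. Those of Pabpc6 were mostly in its 3′UTR, with 5 of 6 in replicate 1 and 4 of 4 in replicate 2, whereas those of Pabpc2, 2 and 3, all lay in CDS. The nuclear Pabpn1 had 22 and 15 clusters and none significant, and Pabpc4l, Pabpc5 and Pabpn1l had no cluster. Of 12 poly(A) polymerases and terminal nucleotidyltransferases, which add the tail or extend it, 8 were significant in both replicates and 5 held 15 joined sites. Papolb, the testis-specific polymerase of spermatids, had 8 of these and 13 and 15 significant clusters of 21 and 20, Tut4 had 3 and Papola 2. Of 22 deadenylase recruiters and PABP-binding factors, 13 were significant in both replicates and 6 had a joined site, led by the release factor Gspt1 with 2.

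By the numbers of significant clusters per region and replicate, the genes most like Pabpc1, of 9730 compared, were Aqp11 at a Euclidean distance of 1.73, and Odf1 and Pcbp2 at 2.65. Aqp11 had 4 joined sites, Pcbp2 3 and Odf1 1. The distance used the CDS counts, so their likeness there is fixed by the choice: the significant CDS clusters were 9 and 8 in Aqp11, 11 and 7 in Odf1 and 10 and 7 in Pcbp2.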

How the data were processed

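The eCLIP-seq libraries of 2 replicates, each an IGF2BP3 IP and its SMInput, were processed by the authors, whose notes name cutadapt, Bowtie2 and STAR and the build mm10. The authors' deposited tables give, for each cluster, a −log10 P value of the comparison of IP with SMInput reads (400 at most) and a log2 ratio of the reads scaled to both libraries. A table holds 1 replicate, and no further normalization was made. The 10 genes and all other lists were chosen with earlier results of these data known.

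Library totals and the reads of each cluster were worked out as the whole numbers that return both listed values, by a two-sided Fisher's exact test if an observed or expected number was below 5 and else by the Yates-corrected chi-square test. A single solution was found for 100.0% and 99.9% of the clusters listed between 0 and 400, and the procedure was tested on simulated data. Read numbers were not given for the others. No cluster ran past the end of a chromosome of GRCm38. Clusters were assigned by their centre to gene spans of GENCODE M21 on their strand, and to regions of its basic transcripts in the order 3′UTR, CDS, 5′UTR, non-coding exon, intron. Positions in the mRNA refer to the longest protein-coding basic transcript. Intervals are Clopper-Pearson for fold changes and Wilson for shares, at 95%.

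All 10 genes are named. From each other list, the 3 genes with the most joined sites and the paralogues of the 10 genes are named, and other genes were named after their values were seen. Clusters given in full are the overlapping pair, significant in each replicate, whose lower log2 fold change is largest, or else the cluster with the highest −log10 P in each replicate. Other clusters were chosen after their values were seen. Genes most like Pabpc1 were ranked by the Euclidean distance over 8 counts. No test of differences between regions or lists was made. The IP and SMInput of a replicate come from the same lysate and were paired by it. Python 3.11.15, numpy 2.4.6, scipy 1.17.1, pandas 2.3.3, pysam 0.24.0, samtools 1.23.1 and matplotlib 3.10.9 were used. The values of some genes of the comparison lists are not reported here.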

Additional observations from a re-analysis of the deposited data

How the results depend on the processing

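A paired analysis, chosen after seeing the data, took the summed reads of the 10 genes in their clusters with recovered reads, 482 of 533 in replicate 1 and 381 of 422 in replicate 2. Most of the others are listed at a −log10 P of 0, and leaving them out raises the ratio. The log2 ratio of IP to SMInput was 1.29 in replicate 1 and 1.43 in replicate 2, with a mean of 1.36. Most of these reads are those of Pabpc1, which gave 9267 of 13978 IP and 6042 of 9670 SMInput reads in replicate 1. In replicate 2 it gave 7491 of 11378 and 9544 of 15220, so the ratio mainly describes this mRNA. The 95% t interval of the mean was 0.51 to 2.22 with the replicate block and 0.67 to 2.05 without it. The ratio describes clusters that were already called and is no test of them. Of 62 values of the 10 genes together under other settings, 45 stayed within 1.5 times the count or within the interval of the value, and 17 moved. With both thresholds at 3, the significant clusters fell to 7 of 533 and 10 of 422 in replicates 1 and 2, beside 1.18% and 2.42% of all clusters. The genes called in both replicates fell to 3 (Paip2, Cnot6 and Pan3) and the joined sites to 2, and the 3′UTR held 14.3% and 50% of the significant clusters. With the log2 threshold lowered to 1, 122 of 533 and 160 of 422 clusters were significant, beside 7.24% and 18.4% of all clusters. There were then 44 joined sites and a 3′UTR share of 22.1% in replicate 1. By the nearest transcription start site, the counts were 28 and 25 clusters, 4 genes and 10 joined sites, and of these genes Cnot1 and Pabpc1l were called only through clusters inside other genes. When a gene had to hold an overlapping pair of significant clusters, of at least 1 base or of at least 50% of the shorter cluster, 5 genes were called. Without Pabpc1, a setting chosen after seeing the data, 10 joined sites were left. Each replicate alone called 8 genes, as many as both together. The cause of these changes was not tested beyond what each setting leaves out. A −log10 P of at least 3, the Benjamini-Hochberg adjustment, a minimum of 10 IP reads, joined clusters, the gene rule without strand and the order of regions moved none of these values past 1.5 times or the interval, where they were run. Of 392 counts of single named genes, 128 moved by more than 1.5 times. Few reads lie under some calls: 7 of the 48 significant clusters in replicate 1 and 15 of the 60 in replicate 2 held fewer than 10 IP reads, beside 29.1% and 62.0% of all significant clusters.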

Other observations

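Significant clusters were also read in the marker genes. Of 6 spermatid markers, Acr had 6 significant clusters in replicate 1 and 8 in replicate 2 and Odf1 11 and 8, while Prm1, Prm2, Tnp1 and Tnp2 had clusters but none significant. Of 4 spermatocyte markers, 1 was significant in both replicates, Ldhc with 2 and 6, and of 4 spermatogonial markers 2 were, Dmrt1 with 2 and 6 and Zbtb16 with 1 and 6. No Sertoli or Leydig cell marker was significant in both replicates, of 4 each. In 1 replicate alone, Wt1 had 6, Insl3 3 and Hsd3b6 1 in replicate 2, and Star had 1 in replicate 1. Amh had only 1 and 3 clusters in all, and Star 2 and 2. Over all genes the share significant in both replicates was 35.2%, and it rises with the number of clusters. Counts among so few genes thus cannot set the cell types apart. The marker genes are given as values alone, and their part in the results of the poly(A) genes was not tested.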
